A study of Homo sapiens with 28 samples.

Results

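The genes that carry peptides to the cell surface on MHC class I were examined for chromatin accessibility in human multiple myeloma cell lines: HLA-B, HLA-C, HLA-E, HLA-F, B2M, TAP1, TAP2, TAPBP and NLRC5. Their regions were all those of the deposited count table whose nearest annotated transcription start bears the symbol of 1 of these 9 genes, which gave 23 of 154985 regions on the GRCh37 genome. By the authors' promoter annotation, 12 of the 23 lay at a promoter of the gene in question and 11 were distal. NLRC5 held 12 of the regions, B2M, HLA-C and TAPBP held 2 each, and each of the other 5 genes held 1. Open chromatin was read by ATAC-seq, an assay based on a transposase that cuts accessible DNA and tags it for sequencing. The data comprised 22 untreated lines, each assayed as 1 library, and 6 of these lines (Karpas620, KMS27, L363, MM1S, OPM2 and RPMI8226) assayed again on day 3 of treatment with 10 µM lenalidomide, a cereblon-binding drug used against myeloma. A cell line is a single long-term culture and a model of the tumor it came from, and its libraries hold no normal plasma cells for comparison. Because no line had a repeat library under the same condition, the spread between lines includes technical variation, and a single value carries counting error only.

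MHC class I molecules display short peptides from inside the cell to CD8 T cells and natural killer cells. HLA-B and HLA-C encode classical heavy chains, HLA-E encodes a heavy chain read mainly by the NKG2 receptors of natural killer cells, and HLA-F encodes a non-classical heavy chain with restricted surface expression. B2M encodes beta-2-microglobulin, the invariant light chain without which the heavy chains do not reach the surface. TAP1 and TAP2 form the transporter that moves peptides into the endoplasmic reticulum, and TAPBP encodes tapasin, which holds empty heavy chains at the transporter while peptides are loaded. NLRC5 is the transactivator that gathers on the SXY module of class I promoters, with the RFX complex on the X1 box, CREB and ATF factors on the X2 box and NF-Y on the Y box. Interferon regulatory factors and NF-kappa B bind further upstream in many of these promoters. Loss of class I display is a known route by which tumors avoid T cells, and beta-2-microglobulin shed into the serum is a clinical marker in myeloma.

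The promoter sequences of the members are shown first because they hold the elements on which these factors act and lie beneath the accessible regions. RefSeq windows of the GRCh38.p14 build, 250 bases before each start, were available for 7 of the 9 genes, and HLA-E and NLRC5 were not in that table. Each window matched its own chromosome of GRCh37 exactly 1 time, other chromosomes were not searched, and the coordinates below are those of GRCh37. The window of each of the 7 genes lay wholly inside the accessible region at its start, whereas a further TAP1 window, of another start, shared 49 bases with that region and held none of the motifs searched. The stretches printed are those parts outside annotated untranslated sequence that held a motif, read 5′ to 3′ on the gene's strand, with the matched motifs in capitals.

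HLA-B (chr6:31325071-31325206, minus strand, positions -250 to -115 from the start): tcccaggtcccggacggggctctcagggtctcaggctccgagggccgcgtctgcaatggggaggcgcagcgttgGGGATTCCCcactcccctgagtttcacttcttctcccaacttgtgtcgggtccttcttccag
HLA-C (chr6:31239883-31240119, minus strand, positions -250 to -14): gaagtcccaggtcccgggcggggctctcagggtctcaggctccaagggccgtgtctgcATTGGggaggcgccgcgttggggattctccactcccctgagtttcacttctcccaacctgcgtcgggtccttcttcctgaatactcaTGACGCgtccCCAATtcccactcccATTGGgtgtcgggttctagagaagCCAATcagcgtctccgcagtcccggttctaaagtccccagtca
HLA-F (chr6:29690961-29691082, plus strand, positions -250 to -129): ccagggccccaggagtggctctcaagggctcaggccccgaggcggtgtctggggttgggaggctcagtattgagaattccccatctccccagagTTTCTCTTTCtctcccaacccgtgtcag
TAP1 (chr6:32821594-32821731, minus strand, positions -250 to -113): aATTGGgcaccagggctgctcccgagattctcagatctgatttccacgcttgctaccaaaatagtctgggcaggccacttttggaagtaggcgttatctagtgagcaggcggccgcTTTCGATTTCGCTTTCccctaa
B2M (chr15:45003522-45003706, plus strand, positions -193 to -9): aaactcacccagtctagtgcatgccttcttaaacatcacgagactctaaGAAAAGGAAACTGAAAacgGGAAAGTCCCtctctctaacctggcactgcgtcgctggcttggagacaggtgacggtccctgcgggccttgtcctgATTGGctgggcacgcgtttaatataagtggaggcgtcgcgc

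A set of 5 letter patterns was searched on both strands of the 250 bases before the start, and their shares were counted over the same stretch of all 35116 RefSeq windows. The core of the interferon regulatory factor element, GAAANNGAAA, was found in 5 of the 7 genes (B2M, HLA-F, TAP1, TAP2 and TAPBP) and in 3.02% of all windows. It began at position -156 in HLA-F, -58 in TAP2, -134 and -128 in TAP1, -20 and -14 in TAPBP, and -144 and -138 in B2M, where each pair of matches overlaps itself. The NF-kappa B pattern GGGANTCCC was found at -176 in HLA-B and in 0.772% of all windows, and the pattern GGGANNTTCC was found at -72 in TAP1, at -125 in B2M and in 1.40% of all windows. The core of the X2 box, TGACGC, was found at -105 in HLA-C, -106 in HLA-B and -35 in TAP2, and in 7.67% of all windows. The core of the Y box, CCAAT, was present in HLA-B, HLA-C, HLA-F, TAP1 and B2M, but also in 32.0% of all windows. HLA-B and HLA-C were 89.0% identical over the 250 bases (226 of 254 aligned positions), HLA-F was 80.4% identical to HLA-B and 78.7% to HLA-C, and B2M aligned to the 3 heavy chain genes at 49.2% to 51.4%. These matches are letters in a reference sequence and show no binding.

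Library totals in the 154985 regions ran from 1599857 to 5564534 in the untreated lines (median 2239819) and from 2168680 to 4248017 with lenalidomide. All values are counts scaled to these totals (CPM), and a count of 3 was worth between 0.539 and 1.88 CPM in the untreated libraries. The plasma cell label was checked on fixed markers. A region within 1 kb of the start was called in at least 11 of the 22 lines for 7 of 8 plasma cell genes, the exception being SLAMF7 (2 lines), and for none of the 3 B cell, 1 T cell, 2 myeloid and 2 erythroid genes that had such a region. Of 4 stromal or epithelial genes, COL1A1 was called in 21 lines. The share of counts in start regions differed between libraries. Over 5410 start regions called in every untreated line, the median log2 deviation of a line ran from -0.29 in H1112 to 0.40 in KMS27, and the SDs of 6 start regions and some correlations are also given below with this shift subtracted.

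The annotation by nearest start missed the promoters of HLA-B and B2M. The only region bearing the symbol HLA-B lay 15244 bases downstream of an annotated HLA-B start (chr6:31306935-31307338), whereas the accessible region at the HLA-B promoter (chr6:31324032-31325481) bears the symbol of a non-coding transcript, XXbac-BPG248L24.12. The region at the B2M promoter (chr15:45003317-45004237) bears the symbol PATL2, a gene that starts on the opposite strand, and the region with the symbol B2M nearest a start (chr15:45004582-45005169) lay 424 bases into a shorter B2M transcript, within an intron. The authors' promoter annotation gives both of these promoter regions to the class I gene. They were added after values had been seen, are not counted among the 23, and together with the regions at the starts of the other 7 genes are called the start regions. The TAP1 start region (chr6:32820740-32822375) also covers the start of PSMB9, an immunoproteasome subunit gene on the opposite strand, so that signal of the 2 genes cannot be told apart there. The same holds for B2M with PATL2 and for HLA-B with XXbac-BPG248L24.12, whose starts lie within the added promoter regions.

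Of the 23 regions, 5 were called in all 22 untreated lines, and these were all promoter regions: the start regions of HLA-C, HLA-E, TAP1, TAP2 and NLRC5. Here a region counts as called where the deposited peak table is above 0. Across all 154985 regions 3.98% were called in every line, and among the 29459 regions within 1 kb of a start 18.4% were, beside 5 of the 11 member regions within 1 kb. The promoter regions of the members were called in a median of 17 lines and the distal regions in 3. A single member region, 1217 bases from an inner NLRC5 start, was called in no untreated line, and 11 others were called in 1 to 5 lines. Of the added promoter regions, that of B2M was called in 22 lines and that of HLA-B in 21, the exception being XG-6, where it stood at 20.6 CPM. The number of member regions called per line ran from 5 in L363 to 15 in U266, with a median of 9. L363 was also the line with the fewest regions called over the whole genome (18943), and the Pearson correlation between both counts over 22 lines was 0.65 (Spearman rho 0.58).

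**Figure D1:**
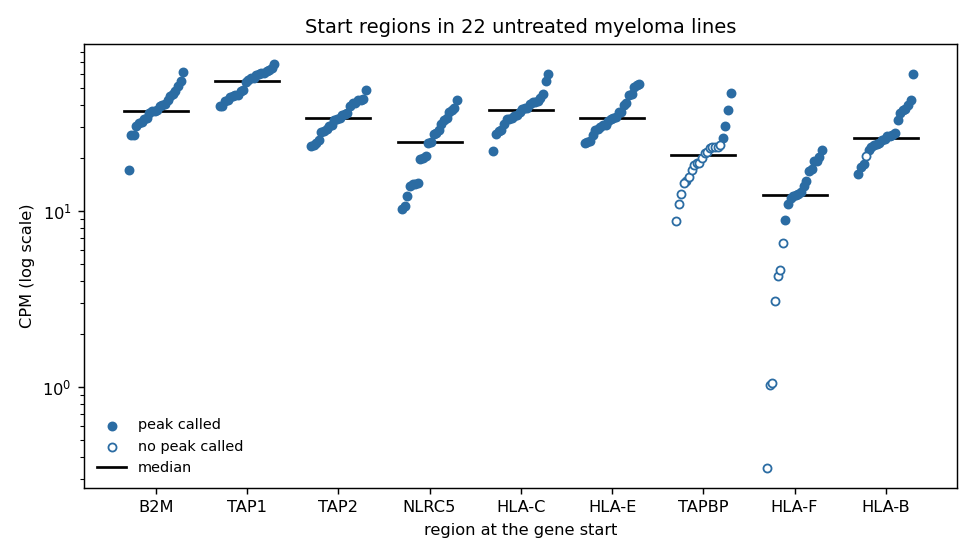
CPM (log scale) of the start region of each of the 9 genes in the 22 untreated lines, ordered by median CPM per kb. Each point is 1 line, filled where a peak was called and open where none was, and bars mark medians. TAP1 stays between 39.1 and 68.1 CPM, whereas HLA-F spreads from 0.347 to 22.1 CPM and TAPBP is mostly open points.

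Scaled to library totals, the start regions of the peptide transporter genes varied least between lines. The TAP1 start region ranged from 39.1 CPM in OPM2 through a median of 54.9 to 68.1 in U266, a 1.74-fold range over 22 lines. The TAP2 start region (chr6:32805819-32806868) ranged from 23.2 CPM in KMS26 through 33.5 to 48.8 in KMS18. The heavy chain genes HLA-E and HLA-C were next. The HLA-E start region (chr6:30456954-30458451) ranged from 24.3 CPM in Karpas620 through 33.5 to 52.7 in KMS18, and the HLA-C start region (chr6:31238923-31240258) from 21.9 in OPM2 through 37.2 to 60.0 in KMS18. KMS18 was the highest of 22 lines for HLA-B, HLA-C, HLA-E and TAP2, and its start regions were 0.27 above the line median over the genome on the log2 scale. The summed CPM of its other regions within 1 Mb was 1.18 times the median line at HLA-B and HLA-C. It was 1.16 times at HLA-E and 1.41 times at TAP2, and the part of this local signal was not tested.

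The SD over lines of log2(CPM + 1) was 0.24 for TAP1, 0.30 for TAP2, 0.32 for HLA-C and 0.34 for HLA-E. Start regions of other genes at a similar level, those with a mean CPM within a factor of 1.5 of the region, had a median SD of 0.52 for TAP1, 0.55 for TAP2, 0.55 for HLA-C and 0.55 for HLA-E. The promoters of B2M (SD 0.39 beside 0.54) and HLA-B (0.44 beside 0.57) also varied less than start regions of similar level, as did TAPBP (0.52 beside 0.64). NLRC5 was close to its like regions (0.62 beside 0.61) and HLA-F exceeded them (1.20 beside 0.94). The order of the SDs changed with the scaling. After division by the signal of the other regions within 1 Mb, the SD was 0.22 for the B2M promoter, 0.27 for TAP1, 0.29 for HLA-C, 0.30 for HLA-E and 0.35 for TAP2. With the line-wide shift of start regions subtracted, it was 0.25 for both TAP1 and TAP2, 0.32 for HLA-C, 0.35 for HLA-E, 0.38 for B2M and 0.40 for HLA-B.

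The HLA-B promoter region ranged from 16.1 CPM in KMS21BM through a median of 26.0 to 60.0 in KMS18. Mapping bears on the heavy chain genes, because 16.6% of the 31-base words in the HLA-B promoter region and 18.1% of those in the HLA-C start region occur elsewhere in GRCh37, compared with 7.56% for HLA-E, 1.07% for HLA-F and 0% for the start regions of TAP1, TAP2, TAPBP, NLRC5 and B2M. The part of these shared words in the values was not tested. The distal region with the symbol HLA-B was at 0 counts in 8 lines and reached 5.67 CPM in RPMI8226 (12 counts, 95% Wilson interval 3.24 to 9.91 CPM).

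HLA-F was the member with the widest spread. Its start region (chr6:29690737-29691418) was called in 15 of 22 lines. In those 15 lines it stood between 8.81 CPM (KMS20) and 22.1 CPM (U266), with a median of 13.8. In the 7 lines without a call it stood between 0.347 and 6.55 CPM, so the called and uncalled lines did not overlap in CPM, as the call is made on the same reads. The lowest was Karpas620, with 1 count of 2882585 (0.347 CPM, 95% Wilson interval 0.0612 to 1.97). KMS12PE and KMS12BM, both established from the same patient, followed at 1.02 and 1.05 CPM. H1112 stood at 3.06 CPM, RPMI8226 at 4.25, L363 at 4.59 and KMS21BM at 6.55. The library totals of the uncalled lines (1680329 to 5564534) overlapped those of the called lines (1599857 to 4653969), and H1112 was the deepest library of all. In Karpas620 the summed CPM of the other regions within 1 Mb was 1.00 times the median line. Over the 22 lines the HLA-F region and this local sum had a Pearson correlation of 0.04 (Spearman rho 0.10). The part of depth or of local signal in the low values was not tested. Over all regions, KMS12BM and KMS12PE correlated at 0.75, rank 15 among 231 pairs of lines (median 0.66).

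**Figure D2:**
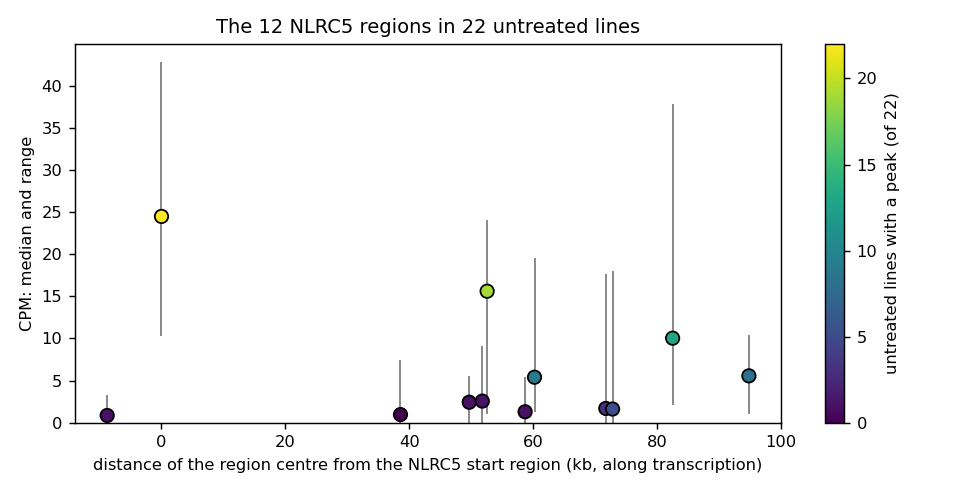
Median CPM (points) and range over 22 untreated lines (lines) of the 12 NLRC5 regions, by distance in kb of the region centre from the NLRC5 start region along the direction of transcription. Color gives the number of lines with a called peak, which falls from 22 at the start region to 19 at the intragenic region with a median of 15.6 CPM and 13 at the one with a median of 10.0 CPM.

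NLRC5, the class I transactivator, held 12 regions, whereas no other member held more than 2. Its start region (chr16:57023177-57023992) was called in all 22 lines and ranged from 10.3 CPM in KMS12BM through 24.5 to 42.8 in KMS26. A cluster of 7 lines (KMS12BM, PCM6, OCIMY5, KMS12PE, KMS20, H1112 and KMS21BM) lay between 10.3 and 14.3 CPM, and the next line, KMS11, stood at 19.8. A further 2 NLRC5 regions were called in at least 11 lines. The first (chr16:57075772-57076558), 371 bases from the start of an inner transcript, was called in 19 lines and ranged from 1.02 CPM in L363 through 15.6 to 24.0 in OPM2. Its 3 uncalled lines were L363, RPMI8226 (3.31 CPM) and OCIMY5 (5.31 CPM). The other (chr16:57105738-57106490), 1592 bases before an inner start, was called in 13 lines and ranged from 2.15 CPM in KMS20 through 10.0 to 37.8 in RPMI8226. RPMI8226 was thus the highest line at 1 inner region and the second lowest at the other.

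The inner NLRC5 regions followed the start region only in part. Over 22 lines the correlation with the start region was 0.36 (rho 0.56) for the region called in 19 lines and 0.28 (rho 0.27) for the one called in 13. The largest was 0.64 (rho 0.67) for a region downstream of the gene body (chr16:57118257-57118597), which was called in 8 lines with a median of 5.57 CPM. The remaining 8 NLRC5 regions were called in 0 to 9 lines. Among these a few lines stood high. The region at chr16:57096219-57096615 was at 0 counts in 5 lines and at 18.04 CPM in U266, and the one at chr16:57094980-57095668 was at 0 in XG-6 and at 17.7 CPM in OCIMY5, where the median was 1.701.

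B2M, the shared light chain, had the highest start region per base, which also covers the start of PATL2. It ranged from 16.999 CPM in RPMI8226 (36 counts) through 37.0 to 61.8 in U266, a 3.63-fold range. The next lowest line was XG-6 at 26.8 CPM. The neighboring intronic region ranged from 3.06 CPM in KMS26 through 9.79 to 32.5 in PE1, was called in 4 lines (KMS12PE, U266, KMS34 and PE1), and correlated with the start region at 0.76 (rho 0.75). A region downstream of the gene (chr15:45011537-45012255) was called in 5 lines and ranged from 0.522 CPM in OPM2 (1 count) through 6.07 to 31.6 in KMS20.

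**Figure D3:**
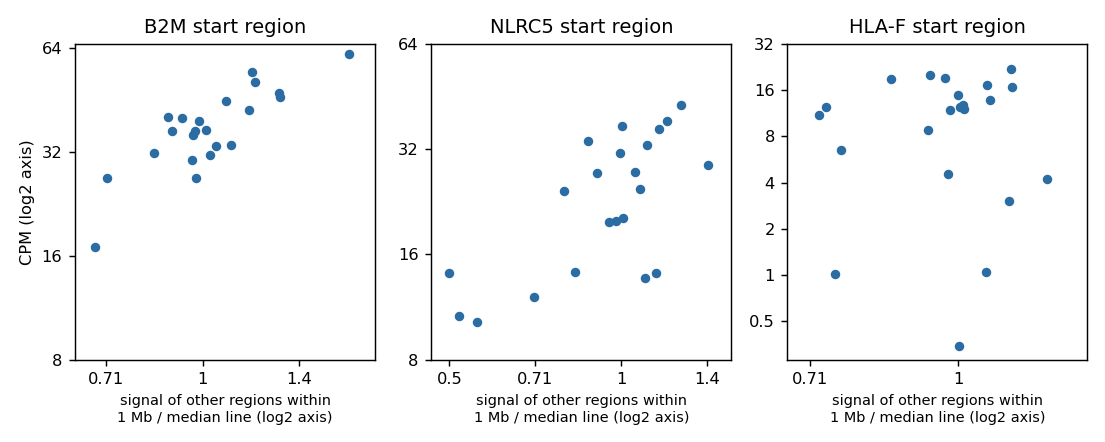
CPM of the B2M, NLRC5 and HLA-F start regions against the summed CPM of the other regions within 1 Mb, as a ratio to the median line, in 22 untreated lines (log2 axes, 1 point per line). B2M follows its surroundings (r = 0.83), NLRC5 does so in part (r = 0.69), and HLA-F does not (r = 0.04).

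The levels of B2M and NLRC5 moved most with the signal of their surroundings, and those of several other members did so in part. The summed CPM of the other 112 regions within 1 Mb of the B2M start region ran from 0.680 times the median line in RPMI8226 to 1.69 times in U266, the same lines that were lowest and highest for B2M itself. The correlation with B2M was 0.83 over 22 lines (rho 0.72) and 0.71 without the 2 lines whose ratio lay farthest from the median line. After division by this ratio, the SD of B2M fell from 0.39 to 0.22, beside a counting SD of 0.15. For NLRC5 the ratio ran from 0.4997 to 1.42, with a correlation of 0.69 (rho 0.63, and 0.61 without the 2 farthest lines), and the SD fell from 0.62 to 0.45. KMS20, PCM6, KMS12BM and OCIMY5, all among the 7 lines with low NLRC5, had the lowest ratios. The rest of these 7 lines differed. H1112 (1.153) and KMS12PE (1.099) had ratios above the median line, and KMS21BM stood at 0.8297. For HLA-C the correlation was 0.49, for HLA-B 0.59, for HLA-E 0.51, for TAPBP 0.49, for TAP1 0.41 and for TAP2 0.21. Without the 2 farthest lines, HLA-C at 0.61 and HLA-B at 0.60 stood level with NLRC5. By the same measure TAPBP stood at 0.46, HLA-E at 0.37, TAP1 at 0.28 and TAP2 at -0.07. The ratio shares library and depth with the member value, and what moves both was not tested.

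TAPBP had 2 regions and the least regular calls. The region at its start (chr6:33281542-33282493) was called in 5 lines, although all 22 lines had at least 8.73 CPM there, with a median of 20.6 and a maximum of 46.5 in KMS12BM. The highest uncalled line, KMS18, stood at 23.6 CPM, above the called line MM1S at 14.8. The region 726 bases into the gene (chr6:33280350-33281005) was called in 12 lines, at 9.30 to 27.3 CPM with a median of 17.8. Hence a missing call for TAPBP was no sign of low signal, in contrast to HLA-F. The regions correlated at 0.51 (rho 0.46) over 22 lines.

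Per kb of region, the order of the members by symbol was TAP1 (median 33.6 CPM per kb), TAP2 (31.9), NLRC5 (30.0), HLA-C (27.8), HLA-E (22.4), TAPBP (21.7), HLA-F (17.9), B2M (16.6) and HLA-B (0.756). Only the last step exceeded the spread of within-line differences, with B2M above HLA-B by 3.21 ± 1.63 (mean ± SD of log2 differences, n = 22) in 21 of 22 lines. With the promoter regions of B2M and HLA-B in place, B2M came first at 40.2 CPM per kb and HLA-B last at 17.9, and no neighbors were set apart. B2M exceeded TAP1 by 0.34 ± 0.35 on the log2 scale and was higher in 20 of 22 lines. HLA-C exceeded HLA-E by 0.24 ± 0.32 and was higher in 16. The width of a region is set by merged peaks of all libraries and enters these values.

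The 3 highest correlations between start regions were those among HLA-B, HLA-C and TAP1. Over the 22 untreated lines, the HLA-B promoter region correlated with HLA-C at 0.78 (rho 0.68) and with TAP1 at 0.65 (rho 0.73), and HLA-C correlated with TAP1 at 0.74 (rho 0.83). Without the 2 lines farthest from the median of the first gene named, these became 0.63, 0.61 and 0.71. The lines left out were KMS18 and U266 for HLA-B, and KMS18 and OPM2 for HLA-C. The second gene of a pair played no part in this choice. HLA-B with TAPBP, at 0.53 over all 22 lines, stood at 0.64 without the 2 lines left out for HLA-B. HLA-E correlated with HLA-B and HLA-C at 0.52 each, and at 0.31 and 0.29 without the lines left out for HLA-B and for HLA-C. TAP2 stood at 0.17 with HLA-C (-0.02 without KMS18 and OPM2), 0.10 with HLA-F and 0.35 with TAP1. With the other members it stood at 0.39 for HLA-E, 0.37 for HLA-B, 0.35 for B2M, 0.32 for TAPBP and -0.03 for NLRC5. HLA-F and TAPBP gave the lowest value on chromosome 6, at -0.03. Over the 21 pairs on chromosome 6 the median correlation was 0.35, and over the 8 pairs with NLRC5 it was 0.07, with values of 0.10 for HLA-B, 0.04 for HLA-C and 0.31 for TAP1. The lowest value of all 36 pairs was -0.53 between NLRC5 and TAPBP (rho -0.48, and -0.49 without KMS12BM and XG-6). After the line-wide shift of start regions was subtracted, HLA-B with HLA-C stood at 0.72 and HLA-C with TAP1 at 0.74. HLA-B with TAP1 then stood at 0.549, just below HLA-B with TAPBP at 0.555, and NLRC5 with TAPBP at -0.49. These are descriptions over lines that share depth and base composition, and the difference between the sets of pairs was not tested. In the HLA-B and HLA-C regions, 16.6% and 18.1% of the 31-base words occur elsewhere in GRCh37. The signal of other regions within 1 Mb correlated with HLA-B at 0.59, HLA-C at 0.49 and TAP1 at 0.41. The part of mapping and of local signal in the correlations between members was not tested.

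**Figure D4:**
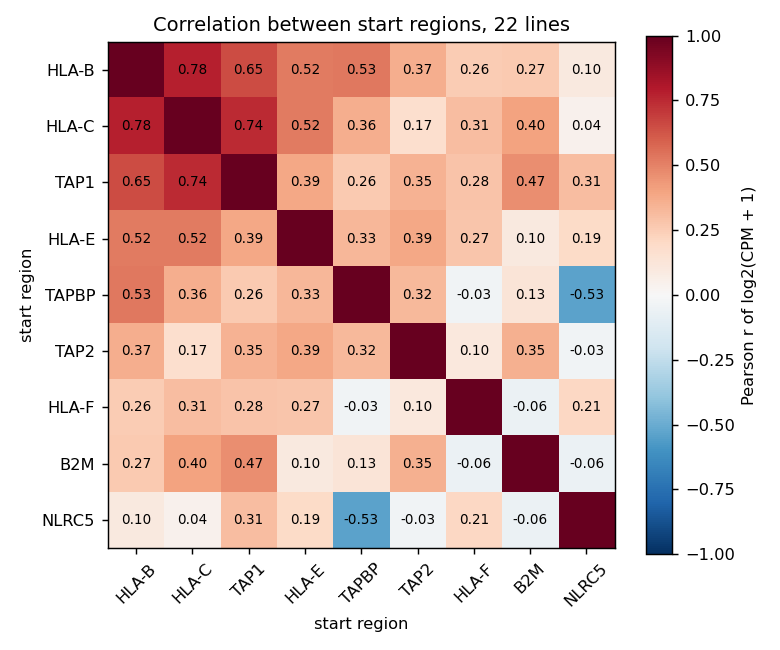
Pearson correlation of log2(CPM + 1) between the start regions of the 9 genes over 22 untreated lines, from -1 (blue) to 1 (red). HLA-B, HLA-C and TAP1 form the reddest block (0.65 to 0.78), and the NLRC5 row runs from -0.53 to 0.31.

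By a fixed rule, the region most like each member was sought among start regions on other chromosomes that were called in at least 11 lines. For HLA-F it was a region of APBB2 (r = 0.89, rho 0.71), for TAP2 of SPATS2 (r = 0.81), for NLRC5 of STXBP5L (r = 0.77), for HLA-E of OST4 (r = 0.77), for TAPBP of CORO7 (r = 0.76), for TAP1 of SP140L (r = 0.74) and for HLA-C of KB-1732A1.1 (r = 0.72). By symbol, the HLA-B region was closest to CNR2 (r = 0.66) and the inner B2M region to ADNP (r = 0.82), whereas the promoter regions of these genes were closest to EIF1 (r = 0.79) and PEX16 (r = 0.73). Each is the highest of 11437 to 11646 values over 22 lines.

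**Figure D5:**
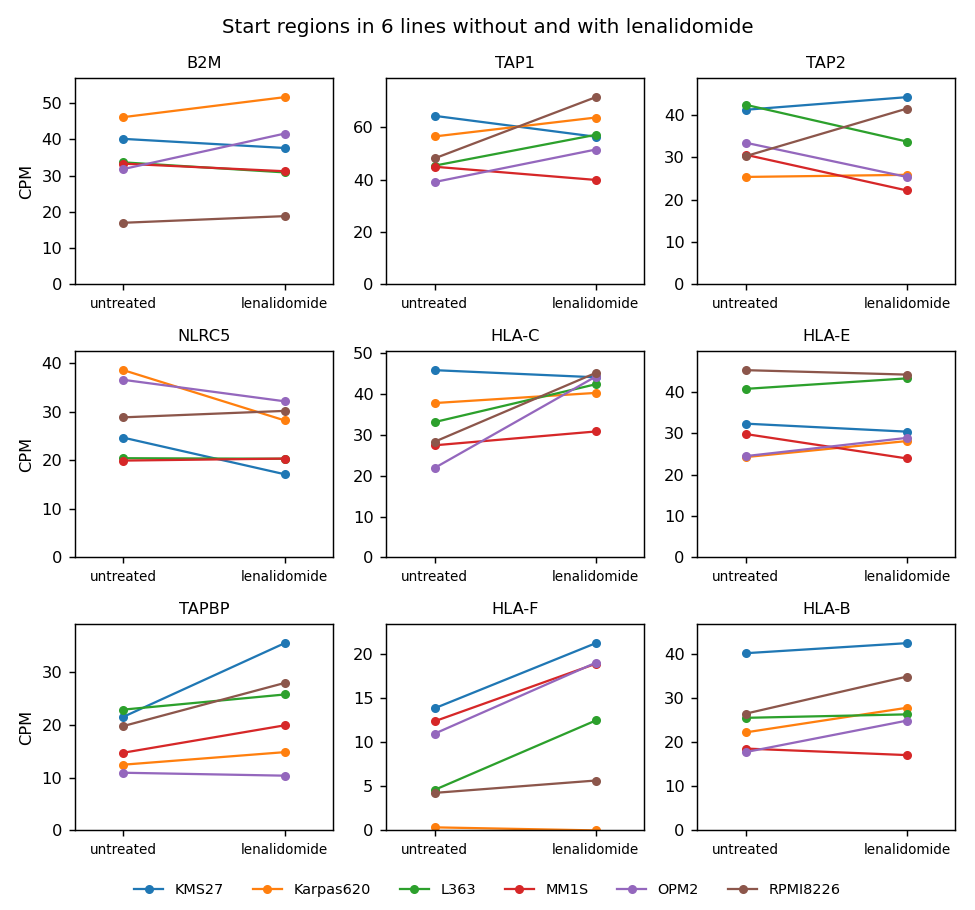
CPM of the 9 start regions in the 6 lines without (left) and with lenalidomide (right), each line joined and colored, with the CPM axis starting at 0 in every panel. HLA-F is higher with lenalidomide in 5 lines and near 0 in Karpas620, HLA-B, HLA-C and TAPBP are higher in 5 of 6 lines, and the other 5 genes in 2 to 4.

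The lenalidomide comparison asked whether these regions changed within 6 lines. Of the 23 regions 13 had enough counts to be tested, and none was called by edgeR at an adjusted p below 0.05 over 37732 regions, where 5.40% of all regions were called (4.17% raised and 1.22% lowered). An unadjusted edgeR p below 0.05 was seen for 4 of the 13 beside 17.3% of all regions, and DESeq2 called none of the 13. Of these 4, the start regions of HLA-F, HLA-C and TAPBP were higher and an inner NLRC5 region was lower. The median log2 fold change of the 13 was -0.05 and that of all tested regions -0.01. The other 10 regions, among them the distal HLA-B region, were too low to be tested and did not exceed 10.6 CPM in any of the 12 libraries. In simulated data with this design, 139 of 200 regions changed 2-fold were recovered. Those regions were drawn from all regions tested and changed alike in every line. Smaller folds, such as the 1.66 of HLA-F, and changes that differ between lines were not simulated.

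HLA-F showed the largest difference. Without and with lenalidomide, its start region stood at 13.8 and 21.2 CPM in KMS27, 4.59 and 12.4 in L363, 12.4 and 18.9 in MM1S, 10.96 and 18.99 in OPM2, and 4.25 and 5.65 in RPMI8226. In Karpas620 it stood at 1 and 0 counts, and with the drug 3 counts were worth 1.17 CPM and the 95% Wilson upper limit was 1.503 CPM. The region was higher in 5 of 6 lines, but the groups overlapped. A peak was called in 3 of the 6 untreated and 5 of the 6 treated libraries, L363 and RPMI8226 gaining 1. The treated RPMI8226 library was also deeper (4248017 counts in place of 2117764), and the part of depth in this call was not tested. The log2 fold change was 0.73 ± 0.23 (SE, n = 6 pairs) with an edgeR adjusted p of 0.0512, just outside the threshold. Without RPMI8226 it was 0.77 and passed (adjusted p = 0.0403), and over all alternatives the adjusted p ran from 0.0403 to 1.00.

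The start regions of the heavy chain gene HLA-C and of TAPBP showed smaller differences that did not pass. HLA-C stood at 37.8 and 40.3 CPM in Karpas620, 45.9 and 44.1 in KMS27, 33.1 and 42.4 in L363, 27.5 and 30.9 in MM1S, 21.9 and 44.3 in OPM2, and 28.3 and 45.2 in RPMI8226. The log2 fold change was 0.35 ± 0.13 (SE, edgeR adjusted p = 0.120). OPM2 and RPMI8226 had the largest differences and low untreated values. MM1S was lower than RPMI8226 when untreated, yet its log2 difference was 0.16. The untreated value is part of the difference, so the 2 are linked by construction. The TAPBP start region was higher in 5 of 6 lines, from 21.6 to 35.6 CPM in KMS27 at the most, with a log2 fold change of 0.38 ± 0.16 (SE, edgeR adjusted p = 0.190). The TAPBP region 726 bases into the gene went the other way and was lower in 5 of 6 lines. Its log2 fold change was -0.16 ± 0.19 (SE, edgeR adjusted p = 0.754). The HLA-B promoter region was higher in 5 of 6 lines with a log2 fold change of 0.20 ± 0.14 (SE, edgeR adjusted p = 0.491).

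The other start regions had smaller differences, and none passed the test. The log2 fold change was 0.18 ± 0.11 for TAP1 (higher in 4 of 6 lines), -0.07 ± 0.13 for TAP2 (3 of 6), 0.01 ± 0.12 for HLA-E (3 of 6), 0.07 ± 0.12 for the B2M promoter region (3 of 6) and -0.18 ± 0.14 for the NLRC5 start region (2 of 6). The inner NLRC5 region called in 19 lines was lower in 5 of 6 lines. It stood at 24.0 and 7.69 CPM in OPM2, 15.4 and 7.26 in MM1S, 17.3 and 17.2 in Karpas620, 11.8 and 9.92 in KMS27, 1.02 and 0.922 in L363 and 3.31 and 4.002 in RPMI8226. The log2 fold change was -0.56 ± 0.24 (SE, edgeR adjusted p = 0.203), and without OPM2 it was -0.30 (adjusted p = 0.662). The start region of the gene in OPM2 stood at 36.5 and 32.1 CPM, and whether both regions differed in response was not tested.

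Genes that work with these members gave no calls either. Of 11 genes for peptide supply and loading, 9 had a region and 8 were tested, with 0 raised and 0 lowered by edgeR (log2 fold changes from -0.24 to 0.14). These included the immunoproteasome gene PSMB8, whose region was called in all 22 untreated lines at a median of 46.3 CPM. Of 15 transcriptional regulators, among them RFX5, the NF-Y subunits, IRF1 and RELA, 14 had a region and 13 were tested, with 0 raised and 0 lowered (from -0.19 to 0.29). The list counts stand beside the 5.40% of all regions called. The regulator closest to the threshold was STAT2, with a log2 fold change of 0.29 (edgeR adjusted p = 0.0535), higher in 6 of 6 lines. In the peptide list it was CANX, at -0.24 (edgeR adjusted p = 0.0877), higher in 1 of 6 lines.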

How the data were processed

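ATAC-seq libraries of 22 untreated myeloma lines and of 6 of these lines after lenalidomide were used, grouped by the labels. The authors aligned reads to GRCh37 with bowtie2 2.2.6, used SAMtools 1.7, called peaks per library with MACS2 2.1.0.20151222 (q of 0.01) and deposited raw read counts over the union of peaks, annotated to genes by the authors. Whether duplicates were removed, read ends were shifted or fragments were counted is not given in the sources used here, and each affects the depth behind a value. A second deposited table of whole-number scores, which its header does not define, was read as the number of a library's own peaks in a region. The deposited normalized values equal CPM and were not used, and the files hold no X or Y regions.

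CPM were computed from library totals and logged with a pseudocount of 1. The lenalidomide comparison used edgeR 4.0.16 (R 4.3.3, limma 3.58.1) on the deposited counts, with TMM scaling, low counts removed by filterByExpr over the 2 conditions, a block for each cell line, the quasi-likelihood test and a Benjamini-Hochberg adjusted p below 0.05 over all regions tested. It was checked on simulated data (139 of 200 regions changed 2-fold recovered, 5 false calls, 37732 regions). Standard errors come from the fold change divided by the root of F. Pairing comes from the line, and the deviations of a line's 2 libraries from their condition means correlated at 0.83 to 0.90. Named were the region of each member nearest a start, other member regions past the threshold or called in at least 11 lines, and the 1 most alike region elsewhere. Regions with the highest or lowest single values, the promoters of HLA-B and B2M, and STAT2 and CANX were named after values were seen. The members, lists and tests were chosen with earlier results of these data known. Alternatives were DESeq2 1.42.0, no TMM, no filter or at least 10 counts per library, no block, each line left out, 2 or 5 CPM in place of a call, a pseudocount of 0.1 and TMM-scaled CPM. Scaling by regions within 1 Mb, the line-wide shift and the promoter regions of HLA-B and B2M were added after the data were seen.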

Additional observations from a re-analysis of the deposited data

Results flagged for a closer look

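In 14 regions of the members, the 6 lines with a lenalidomide pair were screened for a line far from the other 5 in untreated CPM, in lenalidomide CPM and in their log2 difference, 42 sets in all, of which chance flags about 1 in 20. A gap beyond Dixon's 95% limit was found in 3 sets. The HLA-C start region in MM1S with lenalidomide stood at 30.9 CPM, below the 40.3 to 45.2 CPM of the other 5 treated lines. The distal region with the symbol HLA-B in RPMI8226 stood at 5.67 CPM untreated, where the other 5 lines had 0 to 1.03 CPM, and at 7.30 CPM with lenalidomide, where the others had 0 to 1.03 CPM. RPMI8226 thus stood apart at this region in both of its libraries.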

How the results depend on the processing

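Over all regions, edgeR called 2036, and the count was 834 with DESeq2, 587 when every library had to hold at least 10 counts, 4092 unfiltered, 0 with no replicate block and 1067 (without MM1S) to 2503 (without RPMI8226) with a line left out, 1310 without KMS27. For the member regions, the count of 0 remained under all of these except without RPMI8226, where 1 (HLA-F, log2 fold change 0.77) was called, so that leaving out lines gave 0 to 1. Without the line as a block, no member region was called. The paired libraries are of the same line. Among 160 alternative fold changes of members and the 2 added promoters, 148 kept direction and side of the threshold. Those that changed sign were all near 0: the inner B2M region at 0.0088 without a filter and -0.15 to 0.0475 with a line left out, the NLRC5 region called in 13 lines at 0.0039 without a filter, 0.0288 without the replicate block, 0.0219 without OPM2 and -0.23 to 0.0298 with a line left out, the NLRC5 region called in 8 lines at 0.0210 without a filter, 0.0023 without RPMI8226 and -0.14 to 0.0144 with a line left out, and HLA-E at -0.0247 without OPM2 and -0.0313 to 0.0606 with a line left out. HLA-F could not be fitted with at least 10 counts in each library, which removed it. With at least 2 CPM in place of a called peak, 9 regions were present in all 22 untreated lines in place of 5. A pseudocount of 0.1 moved the SD of the HLA-B region by symbol from 0.76 to 1.85, which rests on its 0 counts. The order by CPM per kb kept 5 of 9 members at the same rank when width was left out and 1 of 9 with the promoter regions of B2M and HLA-B. With a line left out, SDs ran from 0.63 to 0.72 for B2M by symbol, 0.60 to 0.78 for HLA-B by symbol, 0.28 to 0.33 for HLA-C, 0.32 to 0.35 for HLA-E, 1.04 to 1.23 for HLA-F, 0.58 to 0.63 for NLRC5, 0.23 to 0.25 for TAP1, 0.28 to 0.31 for TAP2 and 0.46 to 0.53 for TAPBP. The cause of these movements was not tested. Depth limits the low regions, since 3 counts were worth up to 1.88 CPM.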
